A study of Mus musculus with 8 samples.

Results

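Transcripts of 9 lymphocyte surface and receptor genes were followed through the hearts of WT and TKO mice. The 9 were chosen by their symbols, as T and B lymphocyte genes without immunoglobulin chains, because several of them were lower in the TKO than in the WT left ventricle. They are 5 T cell genes (*Cd3e*, *Cd3d*, *Cd3g*, *Cd4*, and *Cd8a*) and 4 B cell genes (*Cd79a*, *Cd79b*, *Ms4a1*, and *Cd22*) among 16994 genes in the table. The left ventricle difference selected them, so it is described here and carries no test.

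T cells recognize antigen through a receptor whose short cytoplasmic tails cannot signal, so the invariant CD3 chains carry the signal into the cell, while the coreceptors CD4 and CD8 bind MHC class II and class I molecules. B cells pair their membrane immunoglobulin with CD79A and CD79B in the same way. CD20, encoded by *Ms4a1*, marks B cells from the late precursor stage until they become plasma cells, and CD22 dampens B cell receptor signaling. The healthy mouse heart holds few lymphocytes, which enter in larger numbers after myocardial infarction (MI).

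RNA came from male mice that were either WT or lacked *Tigar* in the whole body (TKO). The methods trace the study's floxed *Tigar* line to C57BL/6N mice with the EUCOMM tm1a allele, refer to an earlier paper for the TKO line, and do not name the strain of the WT mice. Infarct, border, and remote zones were taken 4 weeks after ligation of the left anterior descending coronary artery at 16 weeks of age. The other libraries are labeled only as left ventricle heart tissue, without a statement of whether those hearts were sham operated. Each genotype and region is 1 library, 8 in all. The infarct zone libraries pool 3 mice per genotype, the number behind the others is not given, and the sources do not say if 1 heart gave several regions.

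The libraries held 27429240 to 33799249 estimated counts. *Tigar* had 1066 to 2215 counts in the 4 WT libraries and 51 to 87 in the 4 TKO libraries, in the direction of the labels. Libraries were scaled by TMM factors, which were 1.54 for the WT and 1.26 for the TKO infarct zone and 0.866 to 0.956 for the other 6. Levels are given in CPM, the count as a share of the scaled library. With 1 library per group there is no spread between mice and no test of genotype within a region, so each ratio has an exact Clopper-Pearson 95% interval that covers counting error only. The reads carry no molecular identifiers and the counts are estimates, so the true error is larger. In bulk RNA, fewer cells of a type and less RNA per cell cannot be told apart.

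All 9 genes were detected above 3 counts in every library, from 4 counts of *Cd3e* in 2 WT libraries and of *Cd3g* in the TKO left ventricle to 271 counts of *Cd79a* in the WT infarct zone. Averaged over the libraries, 8 of the 9 reached 1 CPM, all but *Cd3e*. Positions are given on GRCm38. *Cd3e* (ENSMUSG00000032093, 9:44998740-45009627), *Cd3d* (ENSMUSG00000032094, 9:44981786-44987339), and *Cd3g* (ENSMUSG00000002033, 9:44969572-44980431) are neighbors on chromosome 9, and *Cd3g* and *Cd3d* are transcribed away from each other from starts 1355 bases apart. *Cd79a* (ENSMUSG00000003379) lies at 7:24897381-24902197 and *Cd22* (ENSMUSG00000030577) at 7:30865402-30880342. *Cd4* (ENSMUSG00000023274) is at 6:124864692-124888221, *Cd8a* (ENSMUSG00000053977) at 6:71373427-71379173, *Cd79b* (ENSMUSG00000040592) at 11:106311341-106314762, and *Ms4a1* (ENSMUSG00000024673) at 19:11249675-11266241. *Cd3e*, *Ms4a1*, and *Cd22* overlap other annotated genes (*Gm48719* and *Gm48720*, *4930526L06Rik*, and *Gm29439*), whose reads the counting may have shared with them.

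RefSeq promoter windows of GRCm38.p6, 250 bases before to 50 after a gene's start, were at hand for 6 of the 9 genes (*Cd8a*, *Cd79a*, *Cd22*, *Cd3g*, *Cd3d*, and *Cd3e*). Shown are the stretches before the first annotated base of *Cd3g* (chr9:44980432-44980681, minus strand) and *Cd3d* (chr9:44981536-44981785, plus strand), the divergent neighbors whose TKO over WT ratios in the left ventricle were 0.163 and 0.741, and of *Cd79a* (chr7:24897247-24897380, plus strand), the most abundant of the 9. Each is written 5′ to 3′ on the strand of its gene, and capitals mark the E-box letters CAGGTG or their reverse complement CACCTG.
Cd3g: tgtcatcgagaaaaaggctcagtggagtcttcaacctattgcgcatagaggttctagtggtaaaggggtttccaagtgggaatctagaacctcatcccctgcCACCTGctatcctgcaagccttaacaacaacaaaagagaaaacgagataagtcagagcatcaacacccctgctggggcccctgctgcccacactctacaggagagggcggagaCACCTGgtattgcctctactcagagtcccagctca
Cd3d: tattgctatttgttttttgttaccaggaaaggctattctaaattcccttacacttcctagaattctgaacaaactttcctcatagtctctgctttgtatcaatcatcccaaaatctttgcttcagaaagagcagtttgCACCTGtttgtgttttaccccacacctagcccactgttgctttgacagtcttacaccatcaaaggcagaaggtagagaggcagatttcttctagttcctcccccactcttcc
Cd79a: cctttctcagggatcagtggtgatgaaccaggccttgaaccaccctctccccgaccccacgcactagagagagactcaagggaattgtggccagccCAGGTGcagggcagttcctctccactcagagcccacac
In these stretches the E-box letters began 148 and 35 bases before the first annotated base of *Cd3g*, 112 bases before that of *Cd3d*, and 38 bases before that of *Cd79a*. Over the whole 300-base windows and both strands, 5 of the 6 genes (all but *Cd8a*) held CAGGTG, which 20.2% of all 32851 RefSeq windows hold. The ETS letters GGAAGT occurred in *Cd79a*, *Cd3d*, and *Cd3e* (23.8% of all windows) and the GATA letters AGATAA in *Cd3g* (11.2%). A match to the EBF palindrome was found in *Cd22* (0.904%), whose RefSeq window lies inside the annotated gene. The RUNX letters TGTGGT (16.8% of all windows) and the octamer ATTTGCAT (1.74%) were in none of the 6. These matches describe the letters and not occupied sites, and the motifs were chosen after matches had been looked at.

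Among the CD3 chains, *Cd3g*, which encodes the gamma chain, had 26, 178, 22, and 15 counts in WT left ventricle, infarct, border, and remote zones. In TKO hearts the same regions held 4, 79, 21, and 22 counts. Both genotypes were thus highest in the infarct zone, and the TKO left ventricle was the lowest library. *Cd3d*, encoding the delta chain, had 20, 131, 41, and 24 counts in the WT left ventricle, infarct, border, and remote zones and 14, 62, 24, and 19 in TKO. WT was above TKO in each region. *Cd3e*, encoding the epsilon chain, was the scarcest, with 4, 45, 10, and 4 counts in WT and 5, 24, 7, and 11 in TKO. Outside the infarct zone its counts were too few to order the libraries.

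*Cd4*, the coreceptor of helper and regulatory T cells that mouse macrophages can also carry at low level, had 38, 195, 62, and 50 counts in the WT left ventricle, infarct, border, and remote zones. TKO hearts had 28, 68, 57, and 43 counts in the same order. The WT infarct zone stood above all 7 other libraries, which spanned 1.08 to 2.01 CPM against 4.61 CPM. *Cd8a*, a chain of the coreceptor of cytotoxic T cells, had 28, 99, 22, and 32 counts in WT and 12, 95, 34, and 37 in TKO. Both infarct zones were high for *Cd8a*, at 2.34 CPM in WT and 2.66 CPM in TKO, and the TKO left ventricle was lowest at 0.463 CPM.

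*Cd79a*, the alpha signaling chain of the B cell receptor, had 90, 271, 53, and 38 counts in WT left ventricle, infarct, border, and remote zones. The TKO libraries had 16, 137, 22, and 23 counts in that order. *Cd79b*, its beta partner, had 68, 242, 45, and 48 counts in WT and 9, 115, 15, and 22 in TKO. For both chains each WT library was above the TKO library of its region, and the WT left ventricle was above the WT border and remote zones. *Ms4a1* had 57, 148, 15, and 13 counts in WT and 7, 45, 14, and 10 in TKO, so WT and TKO lay close together in the border and remote zones. *Cd22* had 31, 107, 31, and 28 counts in WT and 16, 78, 27, and 21 in TKO, the narrowest genotype gap of the 4 B cell genes in the left ventricle and infarct zone.

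**Figure D1:**
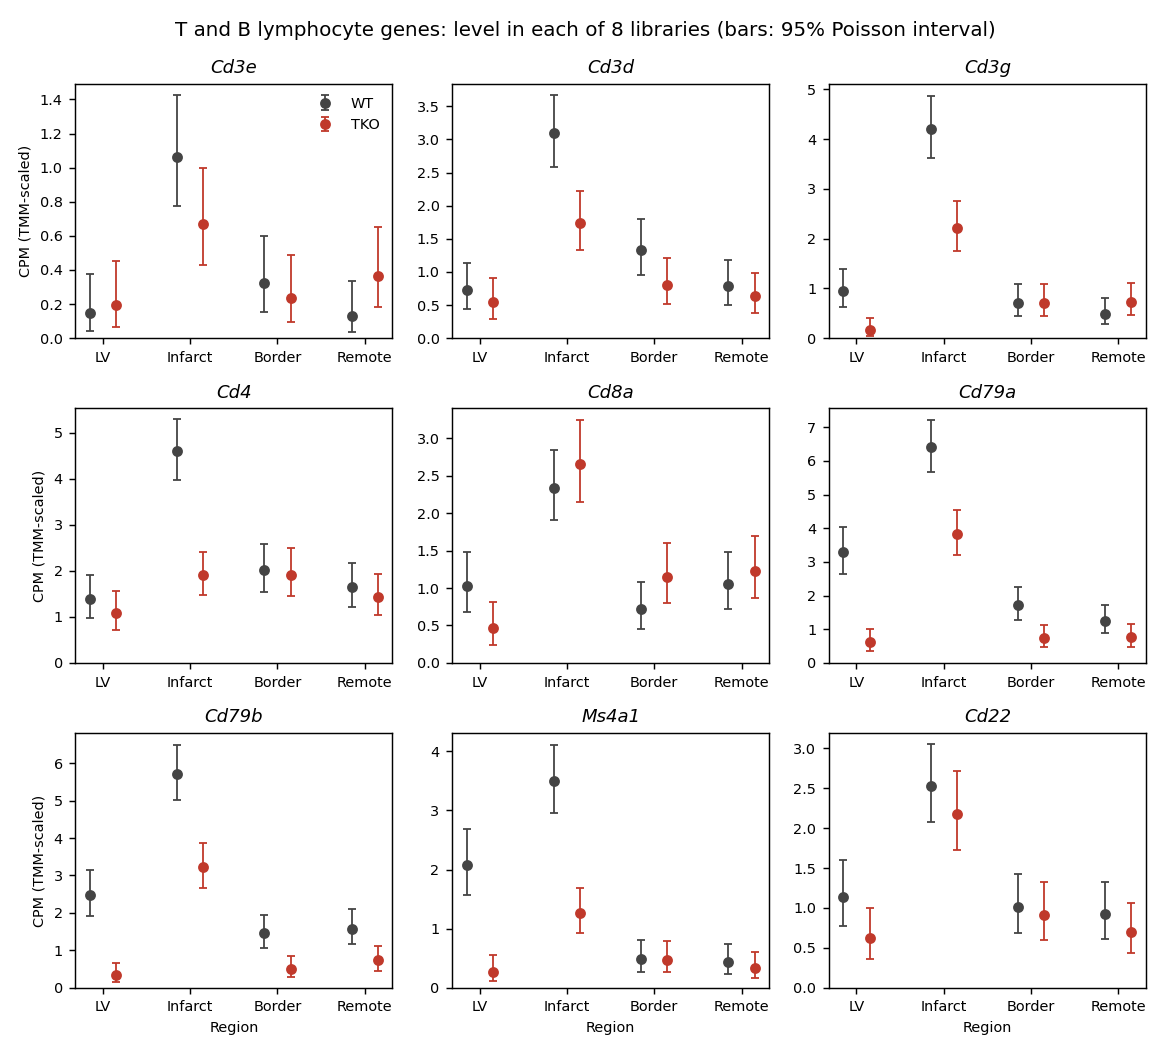
Level of each of the 9 genes in CPM of the TMM-scaled library (vertical axis) in the left ventricle (LV) and the infarct, border, and remote zones (horizontal axis), with 1 point per library, WT in gray and TKO in red, and bars for the 95% Poisson interval of the count. The infarct zone is the highest region for every gene in WT, and the WT left ventricle stands above the TKO left ventricle for *Cd79a*, *Cd79b*, *Ms4a1*, and *Cd3g*, at 3.28, 2.48, 2.08, and 0.949 CPM against 0.618, 0.348, 0.270, and 0.154 CPM.

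Per kilobase of annotated exon, *Cd79a* and *Cd79b* were the most abundant members in the WT left ventricle, at 2.25 and 1.73 CPM per kb. In the TKO left ventricle *Cd79a* was still highest, at 0.424 CPM per kb, but *Cd3d* followed at 0.298 and *Ms4a1* was lowest at 0.0437. Summed over the 4 B cell genes, the level in CPM was 18.2 for the WT infarct zone, 10.5 for the TKO infarct zone, 8.98 for the WT left ventricle, 4.67 for WT border, 4.17 for WT remote, 2.63 for TKO border, 2.52 for TKO remote, and 1.85 for the TKO left ventricle. Neighbors of the same genotype that counting error does not separate were the WT border and remote zones (ratio 1.12, 95% interval 0.876 to 1.43), the TKO border and remote zones (1.04, 0.7497 to 1.45), and the TKO remote zone and left ventricle (1.36, 0.937 to 1.998). The summed T cell level ran from 15.3 CPM in the WT and 9.18 CPM in the TKO infarct zone, through 4.11 to 5.10 CPM in 5 libraries, to 2.43 CPM in the TKO left ventricle. Unlike the B cell sum, it placed the WT left ventricle, at 4.23 CPM, among the border and remote zones.

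In the left ventricle, the comparison behind the choice of genes, 5 of the 9 were at least 2-fold lower in TKO after a prior count of 2 (*Cd3g*, *Cd8a*, *Cd79a*, *Cd79b*, and *Ms4a1*) and 0 at least 2-fold higher. Of the 12999 genes that averaged 1 CPM or more, 3.62% were that much lower and 1.98% that much higher. Without that filter, which *Cd3e* did not pass, the shares of all 16994 genes were 8.35% and 4.23%. Nothing is read from the 5 of 9, since the left ventricle difference is what singled the genes out. The TKO over WT ratio was 0.130 for *Ms4a1* (95% interval, 0.05 to 0.285), 0.140 for *Cd79b* (0.0614 to 0.282), 0.188 for *Cd79a* (0.103 to 0.322), and 0.163 for *Cd3g* (0.0413 to 0.469). These were the 4 lowest ratios, and their intervals overlapped those of some of the other 5 genes. *Cd8a* had a ratio of 0.453 (0.2100 to 0.921), just inside the 2-fold limit at 0.485 after the prior count. *Cd22*, just outside it at 0.5702 after the prior count, had a ratio of 0.546 (0.279 to 1.03). The remaining T cell genes had intervals reaching far to both sides of 1, with ratios of 0.741 for *Cd3d* (0.346 to 1.54), 0.7797 for *Cd4* (0.461 to 1.304), and 1.32 for *Cd3e* (0.285 to 6.67), the last from 5 and 4 counts. The median ratio was 0.164 over the 4 B cell genes and 0.741 over the 5 T cell genes, against 1.01 over all genes tested. *Cd3g* and *Cd3d*, the 2 divergent neighbors, had 4 and 14 counts in TKO against 26 and 20 in WT.

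In the infarct zone, 2 of the 9 genes were at least 2-fold lower in TKO (*Cd4* and *Ms4a1*), against 1.43% of all genes (4.51% without the filter), and 0 were at least 2-fold higher, against 2.4% (4.15%). The ratio was 0.413 for *Cd4* (95% interval, 0.308 to 0.546) and 0.360 for *Ms4a1* (0.252 to 0.505). A further 4 genes had intervals below 1 with ratios between 0.525 and 0.598, namely *Cd3g* (0.398 to 0.688), *Cd3d* (0.407 to 0.763), *Cd79b* (0.446 to 0.705), and *Cd79a* (0.484 to 0.737). *Cd8a* had a ratio of 1.14 whose interval reached from 0.848 to 1.52, and with library totals alone its direction turned, to 0.926. *Cd22* had a ratio of 0.863 (0.636 to 1.17) and *Cd3e* 0.631 (0.368 to 1.06). The medians were 0.5601 over the T cell genes and 0.580 over the B cell genes, beside 1.005 over all genes. Library totals alone placed the infarct zone ratios 0.816 times lower, and then 6 of the 9 genes were at least 2-fold lower (*Cd3d*, *Cd3g*, *Cd4*, *Cd79a*, *Cd79b*, and *Ms4a1*). The same scaling turned the split of all genes there from 186 lower and 312 higher to 497 lower and 116 higher.

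The border zone had 2 genes at least 2-fold lower in TKO, the receptor partners *Cd79a* and *Cd79b*, against 3.26% of all genes (6.86% without the filter), and 0 at least 2-fold higher, against 1.23% (3.95%). Their ratios were 0.431 (95% interval, 0.2497 to 0.721) and 0.346 (0.179 to 0.633). *Ms4a1*, at 0.969 (0.434 to 2.15), and *Cd22*, at 0.905 (0.5195 to 1.57), did not share that gap. Among the T cell genes, *Cd8a* had the highest ratio, 1.61 (0.912 to 2.88), and *Cd3d* the lowest, 0.608 (0.351 to 1.0305), and all 5 intervals held 1. In the remote zone *Cd79b* was at least 2-fold lower, with a ratio of 0.463 (0.266 to 0.782), against 2.39% of all genes (5.08% without the filter). *Cd3e*, from 11 and 4 counts, was at least 2-fold higher at 2.78 (0.824 to 12.0), with an interval that held 1. Since *Cd3e* did not pass the filter, its base is all 16994 genes, of which 4.36% were that much higher in the remote zone (1.17% with the filter). *Cd79a* had a ratio of 0.612 (0.348 to 1.05) there. *Cd79a* and *Cd79b* had ratios below 1 in all 4 regions, as did *Ms4a1*, *Cd22*, *Cd3d*, and *Cd4*. Some of these were near 1 with intervals that held it, such as *Cd4* at the border (0.955, 0.655 to 1.39). In any 1 region 48.6% to 52.0% of all genes averaging 1 CPM or more were below 1. The share below 1 in all 4 was not counted, and the left ventricle is the region that chose the genes. *Cd3g* was above 1 in the remote zone (1.48), *Cd3e* in the left ventricle and remote zone, and *Cd8a* in the 3 zones after MI.

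A genotype difference shared by the 3 zones after MI could be tested with region as a term, in edgeR's quasi-likelihood fit to those 6 libraries, which do not include the ones that chose the genes. The fit was added after the data were seen, and the members were chosen with earlier results of these data known. It leaves 2 residual degrees of freedom, takes regions in place of mice, and gives p-values that are too small if 1 heart gave several regions. Of the 8 members that pass the filter on low counts, 0 had a Benjamini-Hochberg adjusted p under 0.05, against 0.485% of all genes that were lower and 0.154% that were higher in TKO by that measure, and 3 had an unadjusted p under 0.05, against 24.8% of all genes. *Cd79b* was 0.464 times WT (adjusted p = 0.0837), *Cd79a* 0.547 times (adjusted p = 0.103), and *Cd3d* 0.637 times (adjusted p = 0.198), each lower in TKO in 3 of 3 zones. DESeq2 gave 1 member past the threshold, *Cd79b* (adjusted p = 0.0435), where 429 of the 12999 genes tested were lower and 356 higher. Library totals alone gave 2, *Cd79b* (adjusted p = 0.0210) and *Cd79a* (adjusted p = 0.0388), where 1086 of the 12999 genes were lower and 156 higher. The main fit had 63 lower and 20 higher. Over the alternatives the smallest adjusted p of a member ranged from 0.0210 to 0.994.

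**Figure D2:**
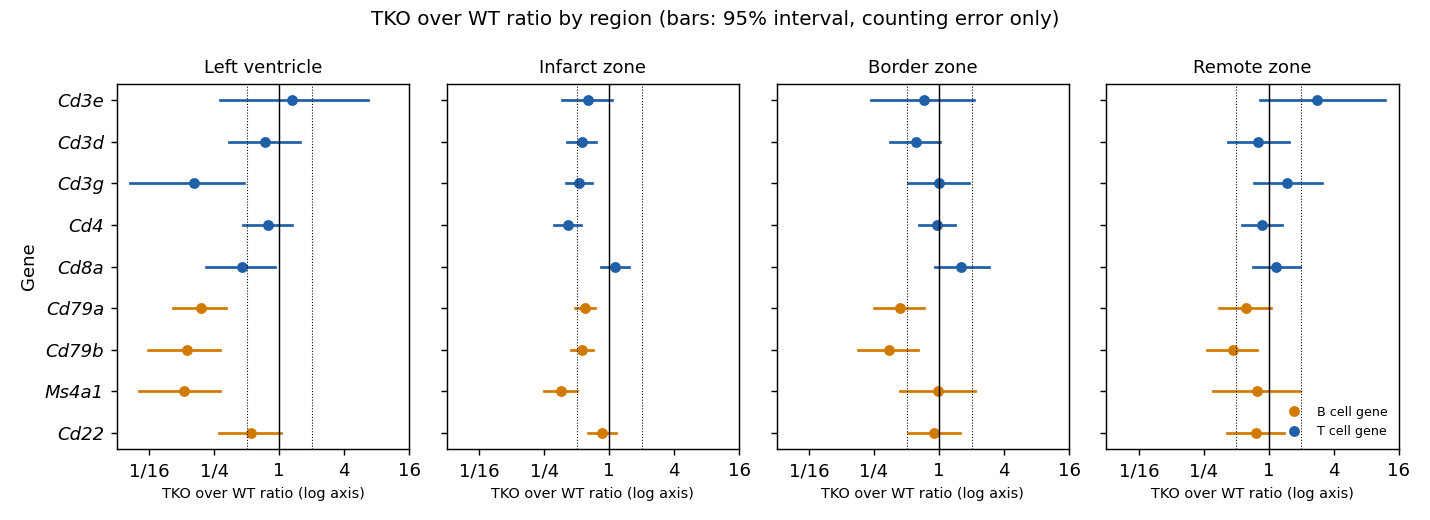
TKO over WT ratio of each of the 9 genes (log horizontal axis, vertical axis by gene) in each of the 4 regions, with 95% intervals from counting error as bars, T cell genes in blue and B cell genes in orange, a solid line at 1, and dotted lines at 2-fold. *Cd3g*, *Cd79a*, *Cd79b*, and *Ms4a1* lie between 0.130 and 0.188 in the left ventricle, whereas in the infarct zone the 9 genes span 0.360 to 1.14 and the intervals below 1 in the border zone are those of *Cd79a* and *Cd79b* and in the remote zone that of *Cd79b*.

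The contrast between regions within a genotype did not use the left ventricle. In WT hearts, the infarct zone exceeded the remote zone at least 2-fold for all 9 genes, against 15.9% of all genes, with a median ratio of 3.93. The largest were *Cd3g*, at 8.54 (95% interval, 5.04 to 15.6), *Ms4a1*, at 8.19 (4.64 to 15.7), and *Cd3e*, at 8.09 (2.95 to 31.0), and the smallest was *Cd8a*, at 2.23 (1.48 to 3.43). In TKO hearts it did so for 7 of the 9, all but *Cd4* and *Cd3e*, against 13.1% of all genes, with a median of 3.02. Both shares are of the 12999 genes averaging 1 CPM or more over the 8 libraries, which leave out *Cd3e*. The infarct zone libraries count toward that average, so scarce genes that are high there pass more easily. Nothing is therefore read from the counts of members against these shares. *Cd4* had a ratio of 1.33 (0.896 to 1.999) in TKO beside 2.81 (2.05 to 3.91) in WT, and the B cell sum had 4.16 (3.24 to 5.39) beside 4.35 (3.60 to 5.29). The T cell sum was 2.09 (1.7049 to 2.58) in TKO and 3.73 (3.07 to 4.55) in WT. Between border and remote zones 0 of the 9 genes differed 2-fold upward in either genotype, against 2.35% of all genes in WT and 1.75% in TKO, and all 18 intervals held 1. With library totals alone *Cd3e* in WT passed 2-fold, and the WT interval of *Cd3d* no longer held 1 (1.79, 1.06 to 3.09). The infarct zone libraries are those with the large TMM factors, and with library totals alone the WT median rose to 6.72, with all 9 genes still at least 2-fold higher. That scaling turned the split of all genes from 2073 higher and 1655 lower to 5132 and 349 in WT, and from 1700 and 532 to 3180 and 116 in TKO.

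Set against the left ventricle within WT, several genes were lower in remote tissue. The WT remote zone held 0.205 times the left ventricle level of *Ms4a1* (95% interval, 0.103 to 0.380), 0.3803 times that of *Cd79a* (0.253 to 0.561), and 0.636 times that of *Cd79b* (0.4299 to 0.933). The other 6 intervals held 1, with ratios of 0.5196 for *Cd3g* (0.256 to 1.02), 0.813 for *Cd22* (0.4701 to 1.40), 0.901 for *Cd3e*, 1.03 for *Cd8a*, 1.08 for *Cd3d*, and 1.19 for *Cd4*. In TKO hearts the remote zone was 4.73 times (1.61 to 18.9) the left ventricle for *Cd3g* and 2.65 times (1.35 to 5.59) for *Cd8a*, and all 4 B cell intervals held 1. These comparisons share the left ventricle libraries with the comparison that chose the genes.

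Ratios of genes within a library do not depend on how libraries are scaled. The B cell genes together had 2.12 counts for each T cell count in the WT left ventricle and 0.762 in the TKO left ventricle. For WT and TKO the value was 1.19 and 1.14 at the infarct, 0.917 and 0.545 at the border, and 1.02 and 0.576 in remote tissue. TKO over WT, the B to T ratio was 0.965 at the infarct (95% interval, 0.801 to 1.16), 0.595 at the border (0.409 to 0.863), and 0.567 in remote tissue (0.382 to 0.839). In the left ventricle it was 0.359 (0.227 to 0.569). The left ventricle value comes from the counts that chose the genes, so it is a description and nothing is read from its interval. The B to T measure was chosen after the counts were seen.

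*Ptprc*, which encodes CD45 on all white blood cells and was also chosen after its values were seen, had 283 counts in the WT and 170 in the TKO left ventricle. At the infarct, border, and remote positions WT had 2638, 600, and 451 counts and TKO had 1334, 364, and 293. The TKO over WT ratio of *Ptprc* was therefore similar in the 4 regions, at 0.636, 0.598, 0.6302, and 0.657. Set against *Ptprc*, *Cd79a* and *Cd79b* had ratios of 0.9997 (95% interval, 0.799 to 1.25) and 0.9397 (0.739 to 1.19) in the infarct zone, while *Ms4a1* had 0.601 (0.418 to 0.851) and *Cd4* 0.6896 (0.511 to 0.921). *Cd8a* relative to *Ptprc* was above 1 in all 3 zones after MI, at 1.8976 (1.41 to 2.56), 2.55 (1.42 to 4.64), and 1.78 (1.05 to 3.02). Other intervals above 1 were those of *Cd22* at the infarct (1.44, 1.05 to 1.96), *Cd4* at the border (1.52, 1.01 to 2.26), and *Cd3g* (2.26, 1.0975 to 4.76) and *Cd3e* (4.23, 1.24 to 18.4) in remote tissue. In the left ventricle *Cd79a*, *Cd79b*, *Ms4a1*, and *Cd3g* had 0.296, 0.2203, 0.204, and 0.256, each with an interval below 1, and *Cd4*, *Cd8a*, *Cd3d*, and *Cd22* had intervals that held 1. These left ventricle values come from the comparison that chose the genes, so they are descriptions and nothing is read from their intervals.

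Other T cell genes were taken from a list of 34 receptor and signaling genes, of which 31 were in the table. Because list genes were counted without a filter on low counts, the base is all 16994 genes, where low counts make 2-fold differences more frequent. In the left ventricle 7 of the 31 were at least 2-fold lower in TKO (8.35% of all genes) and 2 higher (4.23%), with a median ratio of 0.804 after the prior count. At the infarct 4 were lower (4.51% of all genes) and 0 higher (4.15%), with a median of 0.741. At the border 7 were lower (6.86%) and 5 higher (3.95%), with a median of 0.887. In remote tissue 3 were lower (5.08%) and 2 higher (4.36%), with a median of 1. These shares are also the base for the lists that follow. The summed level of the list in the left ventricle was 36.9 CPM in WT and 32.7 in TKO. *Thy1*, a surface glycoprotein of T cells and fibroblasts and the most abundant of the list, had 214 and 233 counts in the WT and TKO left ventricle and 1124 and 629 in the infarct zone. *Lcp2*, the adaptor SLP-76, had 78 and 52 counts in the left ventricle and 470 and 250 in the infarct zone. *Cd28*, a costimulatory receptor, had 135 and 108 counts in the left ventricle, and in the infarct zone it was higher in TKO, with 83 counts in WT and 115 in TKO. *Lck* and *Il7r*, named after their values were seen, had 10 and 18 counts in the WT and 2 and 0 in the TKO left ventricle.

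Of 30 other B cell genes, all in the table, 14 were at least 2-fold lower in the TKO left ventricle and 1 higher, against the 8.35% and 4.23% of all genes, with a median ratio of 0.564. The infarct zone had 7 lower and 0 higher (median 0.657), the border zone 3 lower and 4 higher (0.831), and the remote zone 3 lower and 1 higher (0.897). The list summed to 80.9 CPM in the WT and 64.2 in the TKO left ventricle. *Ebf1*, a transcription factor of early B cells that adipose and stromal cells also express, had 526 and 384 counts in the WT and TKO left ventricle and 1391 and 1082 in the infarct zone. *Cd38*, an ectoenzyme of many cell types, had 266 and 330 counts in the left ventricle and 576 and 410 in the infarct zone. *Pik3ap1*, the adaptor BCAP, had 132 and 77 counts in the left ventricle and 919 and 522 in the infarct zone. The list went both ways in the left ventricle. The kinase gene *Blk* had 54 counts in WT and 89 in TKO, *Ralgps2* had 151 and 236, and *Cd180*, encoding a Toll-like receptor homolog, had 35 and 35. The coactivator gene *Pou2af1* had 53 counts in the WT and 6 in the TKO left ventricle, and the B cell transcription factor gene *Pax5* had 29 and 6. These 5 genes were named after their values were seen.

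Among 8 plasma cell genes, 3 were at least 2-fold lower in the TKO left ventricle, 0 in the infarct and border zones, and 2 in the remote zone, with 0 higher in each and medians of 0.731, 0.744, 0.961, and 0.825. *Jchain*, the chain that joins IgM and IgA multimers, had 669 counts in the WT and 42 in the TKO left ventricle, a ratio of 0.0664 (95% interval, 0.0474 to 0.0908). In the infarct zone it had 7445 and 4839 counts (0.769, 0.742 to 0.798), and in the remote zone 438 and 154 (0.355, 0.294 to 0.428). *Xbp1*, a secretory pathway factor of many cell types, had 2155 and 1857 counts in the left ventricle, and *Sdc1*, encoding syndecan-1, had 123 and 219. The 13 NK and cytotoxic genes measured had 4 lower and 1 higher in the left ventricle (median 0.852), where few of these genes reach 1 CPM and all genes gave 8.35% and 4.23%, 6 and 0 at the infarct (0.597), 3 and 1 at the border (0.729), and 3 and 1 in remote tissue (0.886). *Ccl5*, a chemokine of cytotoxic lymphocytes, had 211 counts in the WT and 86 in the TKO infarct zone, while *Il18rap* had 255 and 167 and *Klrk1* 95 and 47.

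General leukocyte genes were lower in TKO as well. All 12 of the pan-leukocyte list had ratios below 1 in each region, with medians of 0.595, 0.647, 0.6495, and 0.683 for left ventricle, infarct, border, and remote tissue. Of all genes averaging 1 CPM or more, 48.6%, 49.2%, 50.3%, and 52.0% were below 1 in those regions. The list was chosen with earlier results of these data known. At least 2-fold lower were 0, 0, 1, and 0 of the 12. The summed level of the list was 130 CPM in WT and 95.4 in TKO in the left ventricle and 594 and 378 in the infarct zone. *Lcp1*, an actin-bundling protein of leukocytes, had 790 and 597 counts in the WT and TKO left ventricle and 5787 and 2919 in the infarct zone. *Laptm5* had 696 and 512 and then 4768 and 2687, and *Arhgdib* 565 and 524 and then 2394 and 1432. Of 14 macrophage and monocyte genes, 0 were 2-fold different in the left ventricle (median 0.886) or the remote zone (0.773), 1 was lower in the infarct zone (0.722), and 2 in the border zone (0.808). *Lyz2*, *C1qa*, and *C1qb* had 4725, 1379, and 1349 counts in the WT left ventricle and 4038, 1163, and 997 in TKO. Neutrophil and mast cell genes, 10 measured, had 3 lower and 1 higher in the left ventricle (0.693), 1 and 0 at the infarct (0.717), 5 and 3 at the border (0.551), and 4 and 0 in remote tissue (0.582). Their *Csf3r*, *S100a9*, and *S100a8* had 265, 346, and 321 counts in the WT and 92, 61, and 66 in the TKO border zone. In the left ventricle these neutrophil genes had 28, 21, and 14 counts in WT and 36, 17, and 12 in TKO. The 3 higher at the border were the mast cell genes *Cpa3*, *Cma1*, and *Mcpt4*, with 6, 0, and 21 counts in WT and 19, 28, and 46 in TKO. The mast cell genes and the border zone were picked after their values were seen.

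Genes of other cells were also lower in the TKO left ventricle, where the B cell genes were. Of 12 adipocyte genes, 9 were at least 2-fold lower in the TKO left ventricle and 0 higher, with a median of 0.0429, or 0.0670 with counts under 3 set to 3. *Adipoq*, the adipocyte hormone adiponectin, had 370 counts in the WT and 6 in the TKO left ventricle, a ratio of 0.0172 (95% interval, 0.00626 to 0.0377), and *Cfd*, adipsin, had 1144 and 17. *Ucp1*, *Lep*, and *Plin1* were at 0 in the TKO left ventricle against 112, 45, and 34 counts in WT. In the zones after MI of both genotypes, *Plin1* was also at 0, *Ucp1* had 0 to 3 counts, and *Lep* had 1 to 24. For *Adipoq*, *Cfd*, *Ucp1*, *Lep*, and *Plin1* the WT left ventricle was thus the highest of all 8 libraries. These 5 genes were named after their values were seen. The 3 most abundant genes of the list, *Fabp4* (also of capillary endothelium), *Pnpla2*, and *Lipe*, had 18312, 12737, and 1264 counts in WT and 12568, 8231, and 748 in TKO, and so carried the summed level of the list, 1322 CPM in WT and 835 in TKO. Elsewhere 2 of the 12 were lower at the infarct (median 0.706), 4 at the border (0.754), and 1 in remote tissue (1.09), with 0 higher. The part of adipose tissue in the lymphocyte difference was not tested.

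The list of MHC class II genes, which B cells share, and dendritic cell genes had 5 of 11 at least 2-fold lower in the left ventricle (median 0.512), 2 at the infarct (0.595), 2 at the border (0.698), and 1 in remote tissue (0.729), and 0 higher in each. The 5 in the left ventricle were the MHC class II genes *H2-Aa*, *H2-Ab1*, *H2-Eb1*, *Cd74*, and *Ciita*. The left ventricle sum of the list was 248 CPM in WT and 108 in TKO. *Cd74*, *H2-Aa*, and *H2-Ab1* had 3550, 1578, and 1373 counts in the WT and 1417, 636, and 616 in the TKO left ventricle. Of 9 lymph node stroma and lymphatic genes, *Cxcl13* and *Lyve1* were at least 2-fold lower in the TKO left ventricle and 0 higher (median 0.802). *Cxcl13*, a chemokine that draws B cells and a gene named after its values were seen, had 194 counts in the WT and 4 in the TKO left ventricle. At the infarct it had 761 and 172, at the border 24 and 32, and in remote tissue 39 and 18. *Lyve1*, of lymphatic endothelium and resident macrophages, had 879 and 337 counts in the left ventricle and 831 and 805 in the remote zone. *Prox1*, the lymphatic transcription factor that cardiomyocytes also express, had 1163 and 1755 in the left ventricle, and the chemokine gene *Ccl21a* 345 and 261. The list had 1 lower and 1 higher at the infarct (0.902), 0 and 0 at the border (0.968), and 1 and 0 in remote tissue (0.949), and its left ventricle sum was 115 CPM in WT and 110 in TKO. *Madcam1* and *Glycam1*, genes of lymph node vessels named after their values were seen, were at 0 or 1 count in both left ventricle libraries. The part of these cells was not tested either.

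**Figure D3:**
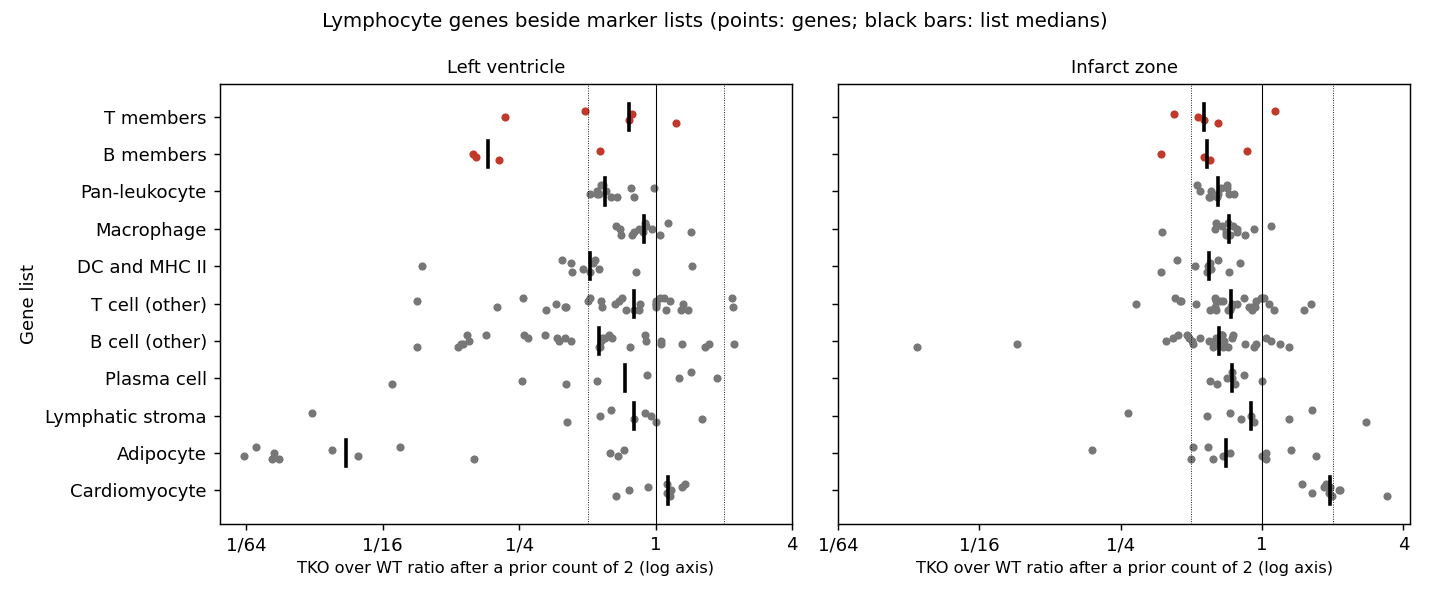
TKO over WT ratio after a prior count of 2 (log horizontal axis) of each gene in the T and B cell members and in 9 marker lists (vertical axis), in the left ventricle and the infarct zone, with gray or red points for genes and black bars for list medians. In the left ventricle the B cell members, the MHC class II list, and the adipocyte list (median 0.0429) lie to the left, and in the infarct zone the leukocyte and lymphocyte lists lie near 0.6 to 0.8 while the cardiomyocyte list lies near 2-fold higher (1.95).

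**Figure D4:**
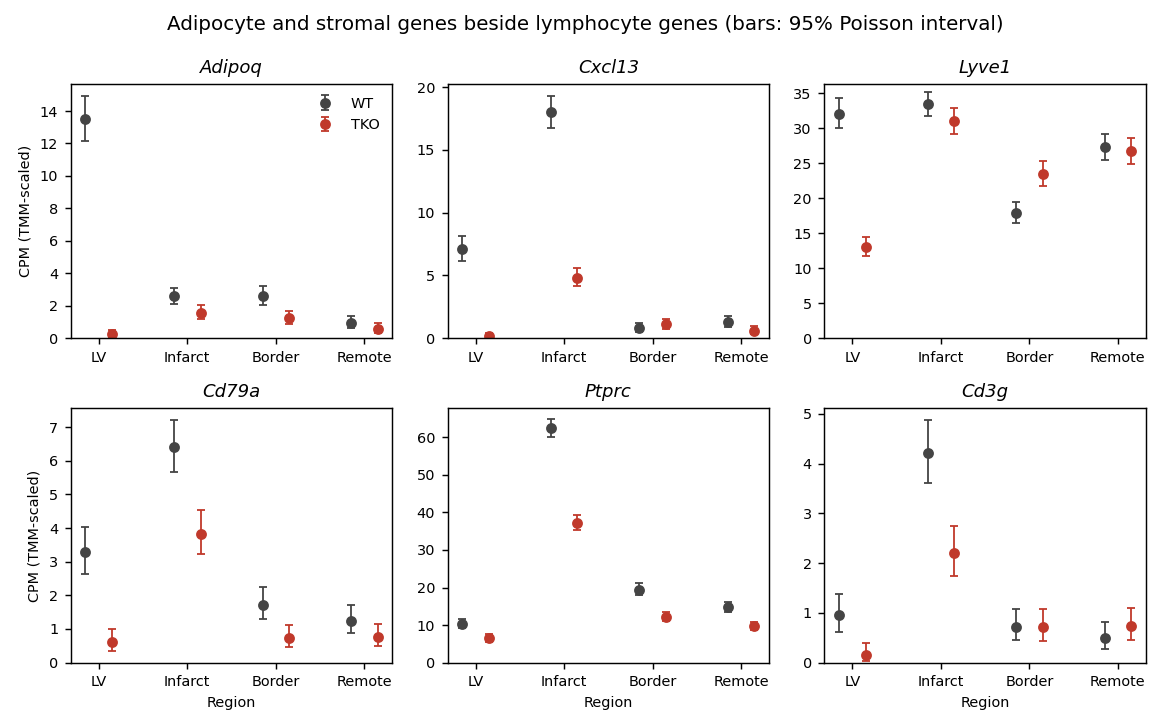
Level in CPM of the TMM-scaled library (vertical axis) of *Adipoq*, *Cxcl13*, *Lyve1*, *Cd79a*, *Ptprc*, and *Cd3g* by region (horizontal axis), WT in gray and TKO in red, with 95% Poisson intervals of the count as bars. *Adipoq* is far higher in the WT left ventricle (370 counts) than in the 7 other libraries (6 to 109 counts), whereas *Cd79a*, *Cxcl13*, and *Ptprc* are highest in the WT infarct zone.

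Genes of developing T cells had a pattern of their own. *Rag1*, the recombinase that assembles antigen receptor genes in lymphocyte precursors, had 22 counts in WT remote tissue and 16, 54, and 49 in the TKO infarct, border, and remote zones, against 0 to 3 counts in the 4 other libraries. *Dntt*, the terminal transferase of the same cells, had 18, 10, 30, and 26 counts in those 4 libraries and 0 to 4 in the others. The same libraries were high for both genes, and 3 of these 4 are TKO. Of the 31 other T cell genes, 5 exceeded WT at least 2-fold in the TKO border zone and 7 were below it by as much. *Cd8b1*, encoding the partner chain of *Cd8a*, had 31 counts there and 6 in the WT border zone, a ratio of 5.37 (95% interval, 2.21 to 15.7), *Tcf7* had 89 and 18 (5.14, 3.07 to 9.06), and *Trbc2* had 64 and 29 (2.29, 1.46 to 3.69), the last sharing near-identical sequence with *Trbc1*. Among the lower ones, *Il2rb* had 24 counts in the TKO and 76 in the WT border zone, *Icos* 12 and 27, and *Lef1* 4 and 14. *Cd8a* itself had 34 and 22 counts. *Rag2* had 1 to 21 counts and *Ptcra* 1 to 9, and both had their highest count in the WT infarct zone. *Ptcra* had 8 counts in the TKO infarct zone, too close to order the 2 libraries. *Cd1d1*, a gene of the 6 on the thymocyte list that many other cells express, had 98 counts in the WT and 107 in the TKO border zone. The list had 1 gene lower and 0 higher in the left ventricle (median 0.735), 0 and 2 at the infarct (1.49), 0 and 3 at the border (2.33, or 3.81 with counts under 3 set to 3 and genes at or under 3 in both left out), and 0 and 1 in remote tissue (1.25). *Dntt*, *Cd8b1*, *Tcf7*, *Trbc2*, *Il2rb*, *Icos*, *Lef1*, *Rag2*, and *Ptcra* were named after their values were seen, and whether thymus tissue was part of any sample was not tested.

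**Figure D5:**
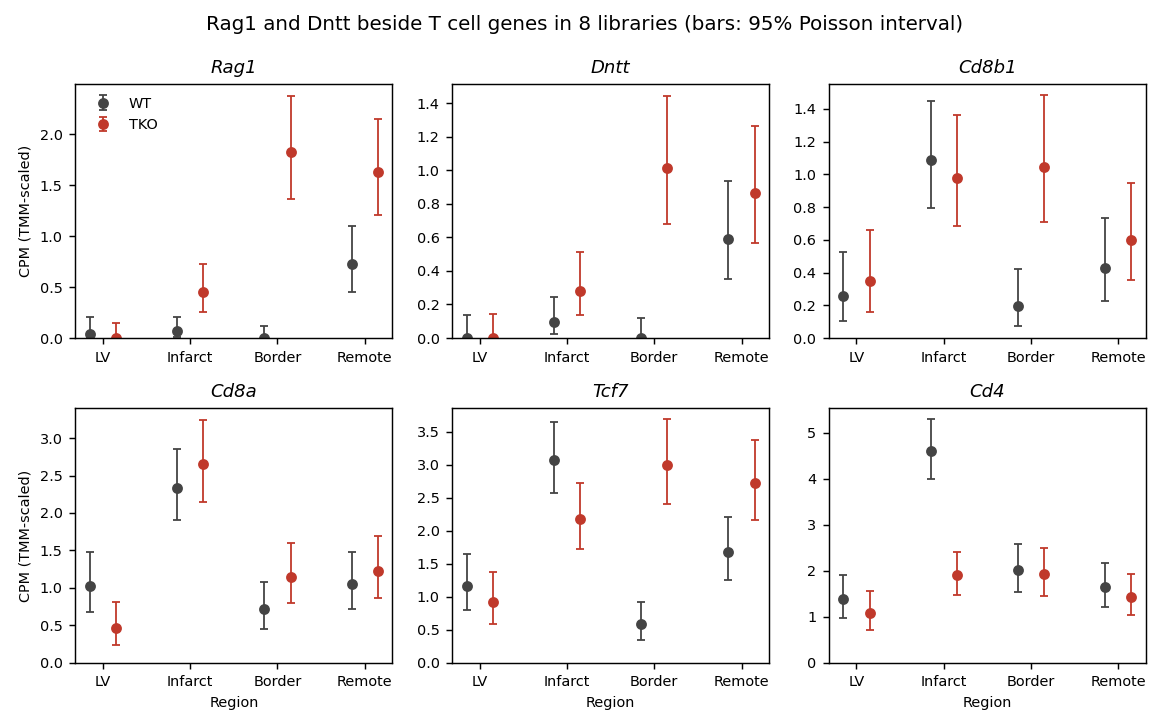
Level in CPM of the TMM-scaled library (vertical axis) of *Rag1*, *Dntt*, *Cd8b1*, *Cd8a*, *Tcf7*, and *Cd4* by region (horizontal axis), WT in gray and TKO in red, with 95% Poisson intervals of the count as bars. *Rag1* and *Dntt* are near 0 in both left ventricle libraries and the WT infarct and border zones and reach 54 and 30 counts in the TKO border zone, where *Tcf7* and *Cd8b1* are also above WT, while *Cd4* is highest in the WT infarct zone.

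Marker lists of other heart cells had these values. In the TKO infarct zone 3 of 10 ventricular cardiomyocyte genes exceeded WT at least 2-fold and 0 were that much lower, with a median of 1.95. The other medians were 1.14 for the left ventricle, 1.23 at the border, and 1.11 in remote tissue, with 0 at 2-fold. *Myl2*, the ventricular myosin light chain gene, had 72195 counts in the WT and 114579 in the TKO infarct zone, *Actc1* 98321 and 153102, and *Myh6* 45355 and 130620. Fibroblast genes, 8 in all, had medians of 1.19, 0.8098, 0.568, and 0.6902 for left ventricle, infarct, border, and remote tissue, with 2 lower in the border and 1 in the remote zone and 0 higher. *Col3a1* had 25374 and 10340 counts in the WT and TKO border zone, *Col1a2* had 14634 and 7678, and *Dcn* 22855 and 16271, each lower in TKO where *Cd79a* and *Cd79b* were lower too. Endothelial genes, 8 in all, stayed within 2-fold with medians of 1.03, 1.19, 0.943, and 0.988 in the left ventricle, infarct, border, and remote zones, the infarct zone value falling to 0.96995 with library totals alone, and *Cdh5* and *Pecam1* had 4856 and 5998 counts in the WT and 5093 and 5343 in the TKO infarct zone. Red blood cell genes, 7 in all, had medians of 1.23, 1.08 (0.879 with library totals alone), 1.21, and 1.03, with 1 gene higher in the border and 1 in the remote zone and 0 lower, and *Hbb-bs* had 89271 counts in the WT and 78569 in the TKO infarct zone. Atrial cardiomyocyte genes, 8 in all, had 0 at 2-fold in the left ventricle (median 1.25), 3 lower at the infarct (0.725), 5 at the border (0.486), and 6 in remote tissue (0.394), with 0 higher. *Nppa* had 59713 counts in the WT and 14718 in the TKO remote zone, and *Dkk3* had 3135 and 1363. What these differences contribute to the lymphocyte values was not tested.

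The genes whose level was most like the mean log2 profile of the members were found by Pearson's r over the 8 libraries among 13962 genes averaging 0.5 CPM or more, as a description that shares libraries and depth. For the 5 T cell genes they were *Pxn* (r = 0.996), *Prr3* (0.996), *Tbl2* (0.993), *Kbtbd11* (0.992), *Cic* (0.991), and *Unc13d* (0.991). For the 4 B cell genes they included *Zfp282* (0.985), *Slc7a8* (0.983), *Pcnx4* (0.982), *Ighm* (0.981), and *Ptpn22* (0.97995). *Ighm*, the mu heavy chain gene that B cells express, had 210 to 8657 counts. Without the left ventricle libraries, 0 of the 6 genes were shared for either profile. Among the members themselves, r with the mean B cell profile was 0.9897 for *Cd79a*, 0.946 for *Cd79b*, 0.917 for *Ms4a1*, and 0.916 for *Cd22*, and *Cd22* had 0.932 with the T cell profile.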

How the data were processed

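RNA-seq of 8 libraries, 1 for each of 2 genotypes and 4 regions, was analyzed. Per the submitters' processing notes and the study's methods, the authors trimmed reads with Trim Galore 0.6.5, quantified them with kallisto 0.46 against the mm10 transcriptome, summed transcripts to genes with tximport, and used edgeR 3.34.1. The deposited values are estimated counts of 16994 genes, written as whole numbers without normalization. 153 of the entries have no gene symbol and are kept by identifier. Estimation can move reads among transcripts that share sequence, so low counts carry more error than their intervals show.

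Here TMM factors were computed on the 12999 genes averaging 1 CPM or more (edgeR 4.0.16, R 4.3.3). Ratios have exact Clopper-Pearson 95% intervals, and ratios of ratios and ratios to *Ptprc* have exact conditional intervals (scipy 1.17.1). A gene counted as different at 2-fold after a prior count of 2, scaled to library size. Counts of 3 or fewer were treated as the floor. No group has a second library, so p-values come only from edgeR's quasi-likelihood test of genotype with region as a term, added after the data were seen. The intervals were tried on simulated Poisson counts, which hold counting error only. The edgeR test was tried on simulated counts drawn independently for each library, so a heart that gave several regions was not covered. Positions come from GENCODE M21 (GRCm38) and promoters from RefSeq (GRCm38.p6). Alternatives were library totals alone, DESeq2 1.42.0 size factors, TMM restricted to the pair of libraries compared, mitochondrial DNA-encoded genes left out, TMM with all genes, other prior counts, and no filter. Tables and plots were made with matplotlib 3.10.9, numpy 2.4.6, and pandas 2.3.3 under Python 3.11.15.

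The members, the 16 gene lists, and the rule for named genes were chosen with earlier results of these data known. The rule named the 9 members, *Tigar*, the 3 genes of each list with the largest summed counts, any T, B, or plasma cell gene at least 2-fold different in the same direction in all 4 regions (0 were found), and the 6 genes most like each profile. Some of the genes this rule names are not reported here. The authors' own tests were not used.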

Additional observations from a re-analysis of the deposited data

Results flagged for a closer look

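For each of the 9 genes the TKO over WT ratio of the left ventricle was divided by that of each zone after MI, 27 values in all, and 15 had a 95% interval from counting error that excluded 1. Of these, 14 lay below 1, 5 of 9 against the infarct, 4 against the border, and 5 against the remote zone. Over all 12999 genes averaging 1 CPM or more, a normal interval of the log ratio lay below 1 for 31.9%, 24.2%, and 23.9% and above 1 for 21.8%, 23.8%, and 26.5%, since many genes have counts so large that the interval is narrow. The left ventricle ratio also chose the genes, which fixes the direction of most of them, so these values are descriptions, and the difference between regions was not tested across mice. *Cd3g* had 0.3100 against the infarct zone (0.0763 to 0.939), 0.164 against the border zone (0.0364 to 0.603), and 0.110 against the remote zone (0.0239 to 0.422). *Ms4a1* had 0.361 (0.130 to 0.873), 0.134 (0.0393 to 0.4397), and 0.167 (0.0456 to 0.605) in the same order. *Cd79a* had 0.314 (0.166 to 0.566), 0.436 (0.196 to 0.961), and 0.308 (0.136 to 0.689). *Cd8a* had 0.399 (0.175 to 0.8699), 0.282 (0.108 to 0.724), and 0.388 (0.154 to 0.949). *Cd79b* had 0.249 against the infarct zone (0.106 to 0.526) and 0.302 against the remote zone (0.113 to 0.762), while its value against the border zone, 0.404, had an interval that held 1 (0.144 to 1.09). *Cd4* was the one gene with a value above 1 and an interval that excluded it, 1.89 against the infarct zone (1.03 to 3.42). For *Cd3e*, *Cd3d*, and *Cd22* all 9 intervals held 1.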

How the results depend on the processing

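Of 72 gene ratios, all 72 stayed within their main intervals under each of DESeq2 size factors, TMM restricted to the pair of libraries compared, mitochondrial DNA-encoded genes left out, and TMM with all genes, and 66 did with library totals alone. None of the ratios with an interval excluding 1 turned direction under these settings. With library totals alone, the members at least 2-fold different between genotypes in the infarct zone became 6 in place of 2, those between border and remote zone in WT became 1 in place of 0, and the median infarct over remote ratio in WT became 6.72 in place of 3.93. These moves follow from the log2 shift of the scaling itself, -0.29 for TKO over WT in the infarct zone and 0.77 for infarct over remote zone in WT. With a prior count of 5 the remote zone count became 0 in place of 2, and with 0.5 the 4 genotype counts stayed within 1.5 times their value. Without a filter on low counts, the share of all genes at least 2-fold different rose from 5.60% to 12.6% in the left ventricle, 3.83% to 8.68% in the infarct zone, 4.49% to 10.8% in the border zone, and 3.56% to 9.46% in the remote zone. In the fit of genotype with region as a term over the 3 zones after MI, added after the data were seen, the members past an adjusted p of 0.05 were 0, becoming 1 with DESeq2 and 2 with library totals alone, and staying 0 with the left ventricle added, with no region term, without a filter on low counts, and without each zone in turn. Over all genes those past it were 63 lower and 20 higher in the main fit, 429 and 356 with DESeq2, and 1086 and 156 with library totals alone. No paired analysis was possible by replicate because the labels give no replicate numbers and each group holds 1 library. Depth limits the scarce genes most: *Cd3e* had 4 to 11 counts outside the infarct zone, and its remote zone ratio of 2.78 had an interval that held 1.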
